A study of Mus musculus with 6 samples.

Results

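The 2 Sin3a Wild Type arrays of a series of 6 show what the newborn mouse testis transcribes where Sin3a, the scaffold of a histone deacetylase corepressor complex, is intact. They were chosen by their sample titles alone, and the other 4 arrays, of animals with 1 or both Sin3a alleles lost, were not compared here. Each wild-type array holds the RNA of whole testes from 1 male mouse at postnatal day 0, of the FVB.129/Sv mixed strain and the genotype Vasa-cre;Sin3a+/+. These animals are therefore wild type at Sin3a but carry the Ddx4 (Vasa) promoter-driven Cre recombinase, as do all groups of the series. The series names them as separate biological replicate animals, 1 array each, and both arrays lay in the same row of 1 slide. With 2 animals and no second condition, everything below is a description without a test.

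The newborn testis is built of cords that hold gonocytes, the germ cells that descend from primordial germ cells and give rise to spermatogonia, surrounded by Sertoli cells. Between the cords lie fetal Leydig cells, which make androgen, together with mesenchymal progenitors, vessels and macrophages, and a layer of peritubular myoid cells wraps each cord. Gonocytes rest in the cell cycle around birth, and meiosis and spermatids appear only later in postnatal life.

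Each of 55681 distinct non-control probes was given the log2 of its processed signal minus the 75th percentile of its array, and the probes were ranked by the mean of both arrays. A gene took its brightest probe, which gave levels and ranks for 21984 genes with a symbol, rank 1 being the brightest. A gene was called detected where a probe was well above background on both arrays, which held for 16302 genes (74.2%). Bright means the top 10% of all genes ranked (2198 genes, level 3.43 or more). Middle means detected and at or above the median of detected genes (5953 genes, down to 0.37), and dim means detected below it (8151 genes, down to -5.60). A further 846 genes passed on 1 of the arrays only and 4836 on neither. These bands order probes by brightness. They do not order transcripts by number of molecules, since probes of 1 gene can differ widely, as the Foxl2 probes below do.

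The probes behind the 5 cell markers are shown first, since each marker was read through 1 probe, and the capitals mark runs of 6 or more consecutive G or C. Amh and Cyp17a1 are given whole, at 60 bases, and Ddx4, Sox9 and Acta2 by their first 30 bases.
Ddx4: tttagatcatcagacatgtaatgaaaatgg
Sox9: ataaaaccttaaagcgttcttataatatgg
Amh: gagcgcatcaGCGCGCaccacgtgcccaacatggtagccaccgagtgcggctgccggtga
Cyp17a1: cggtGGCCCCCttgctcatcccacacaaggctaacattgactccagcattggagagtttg
Acta2: gttttgtggatcagcgcctccagttccttt
On the array's design build, mm9, the Ddx4 probe lies at chr13:113388616-113388675 (minus strand, transcript base 2636). The Sox9 probe lies at chr11:112648809-112648868 (plus strand, base 3883) and the Amh probe at chr10:80270334-80270393 (plus strand, base 1605). The Cyp17a1 probe lies at chr19:46742594-46743207 (minus strand, base 1247), a span longer than the probe itself, and the Acta2 probe at chr19:34316060-34316119 (minus strand, base 1241).

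A second set shows why a bright rank was read with care. The gene Foxl2, a transcription factor of the ovary, has 2 probes that share 12 bases, and Zfp628, a zinc finger gene, has a probe among the brightest of the array.
Foxl2, bright probe: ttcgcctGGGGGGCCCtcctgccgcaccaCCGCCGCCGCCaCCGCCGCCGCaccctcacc
Foxl2, dim probe: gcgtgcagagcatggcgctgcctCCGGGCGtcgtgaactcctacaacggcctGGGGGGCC
Zfp628: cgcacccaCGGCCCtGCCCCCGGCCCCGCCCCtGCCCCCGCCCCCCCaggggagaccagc
The Foxl2 probes lie at chr9:98856894-98856950 and chr9:98856846-98856905, and that of Zfp628 at chr7:4871046-4871105, all on the plus strand. Their G and C contents are 81.7%, 71.7% and 86.7%, and the longest unbroken run of G and C is 17 bases in the Zfp628 probe and 11 in the bright Foxl2 probe. The mapped span of the bright Foxl2 probe is shorter than its 60 bases.

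The 5 markers were all detected in both animals, and their brightness set 2 of them apart. Throughout, levels are given for replicate 1 and then replicate 2. Cyp17a1, the enzyme of fetal Leydig cells that turns progestogens into androgens, stood at 5.29 and 5.50 (rank 563). Acta2, the smooth muscle actin of peritubular myoid cells and vessels, stood at 5.24 and 5.80 (rank 506). Both were bright. The other 3 were in the middle band. Ddx4, an RNA helicase found in germ cells, stood at 2.05 and 2.25 (rank 4334). Amh, the Sertoli cell hormone that makes the Müllerian duct regress, stood at 1.87 and 1.75 (rank 5078). Sox9, the transcription factor that sets Sertoli cell fate, stood at 2.07 and 1.42 (rank 5224), the widest gap of the 5 markers. In whole testis, and with 1 probe per marker, fewer cells of a type, less RNA per cell and a weaker probe cannot be told apart.

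Every listed gene of the gonocyte stage was detected, and most were of moderate or low brightness. All 41 germ cell genes passed, with 3 bright (7.32%), 18 middle and 20 dim, and their median rank was 8100, beside 74.2% of all genes detected and 10% bright. With the median of a gene's probes 5 germ cell genes were bright. The plot of levels by list shows them spread around the line between middle and dim. Among the 18 genes of germ cell identity and of the small RNA pathways, the brightest was Mael, which acts in silencing transposons, at 3.66 and 3.77 (rank 1812). Tex101, a germ cell surface protein, followed at 2.80 and 3.13. Nanos3, an RNA-binding protein that protects primordial germ cells, stood at 1.80 and 1.98, close to Ddx4. The dimmest were the Tudor domain genes Tdrd1 (-2.84 and -2.44) and Tdrd6 (-3.54 and -3.54), which belong to germ granules.

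Among the 23 regulators of gonocytes and stem cells, Tex19.1 and Etv5 were bright. Tex19.1, which acts against transposons, stood at 3.70 and 3.90. Etv5, a transcription factor needed for stem cell renewal and also made by Sertoli cells, stood at 3.47 and 3.63. The de novo DNA methyltransferase Dnmt3a stood just below the bright band (3.59 and 3.23), and the transcription factor Egr4 at 2.40 and 2.85. Gfra1, the GDNF receptor of spermatogonial stem cells, stood at -2.98 and -2.14. Nanos2, which keeps male germ cells out of meiosis, stood at -3.28 and -2.95 (rank 14075) and was the dimmest of this list. In both germ cell lists together, no member differed more than 2-fold between the animals.

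Genes of later germ cell stages were dimmer. Of 26 such genes 19 were detected and 0 were bright, against 74.2% and 10% of all genes. Their median rank was 14724. All 12 meiosis genes passed, 4 in the middle band and 8 dim. The brightest was Stra8, the retinoic acid target that licenses entry into meiosis, at 1.25 and 1.66 (rank 5834). Of 14 spermatid genes 7 passed, all dim, with the sperm lactate dehydrogenase Ldhc the brightest at -0.02 and -0.19. The 7 others, named after their values were seen, were the protamine gene Prm1, the transition protein gene Tnp2, the sperm glycolysis genes Pgk2 and Gapdhs, Smcp, Acrv1 and Odf1. None of them was well above background on either array. The protamine gene Prm2 was detected, at -2.73 and -3.19.

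**Figure D1:**
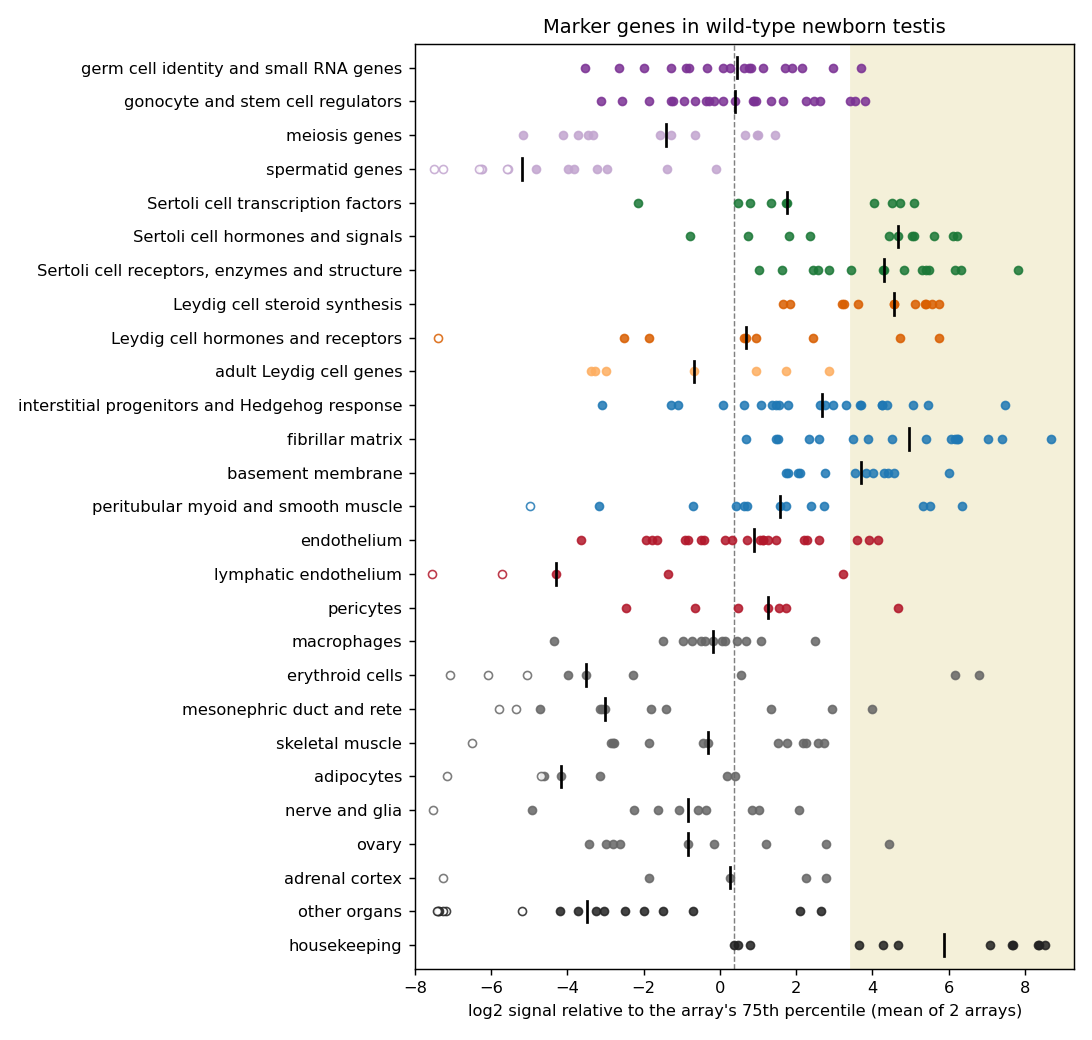
Mean log2 signal of 2 wild-type arrays, relative to each array's 75th percentile, for each gene of 27 marker lists (rows). Filled points were detected on both arrays, open points were not, black bars are list medians, the shaded area is the bright band (3.43 or more) and the dashed line (0.37) parts middle from dim; the Sertoli signal, Sertoli receptor and enzyme, steroid, fibrillar matrix, basement membrane and housekeeping lists have their medians inside the bright band, and the spermatid list has 7 of 14 points open.

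Sertoli cell genes were among the brightest marker genes on the arrays. All 36 were detected, against 74.2% of all genes. Of them 21 (58.3%) were bright against 10% of all genes, and their median rank was 1226. Among 10 transcription factors, 4 were bright. Wt1, needed for gonad formation, stood at 4.87 and 5.31 (rank 699). Nr5a1 (SF-1), which acts in both Sertoli and Leydig cells, stood at 4.71 and 4.73. The homeobox gene Rhox8 followed at 4.49 and 4.54 and Gata4 at 3.86 and 4.20. Sox9 and its relative Sox8 (0.75 and 0.22) were in the middle band.

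Of 11 Sertoli cell hormones and signals 7 were bright. Ptgds, which makes prostaglandin D2 and is a target of SOX9, stood at 6.23 and 6.22 (rank 302). Inha, the inhibin alpha subunit, stood at 6.04 and 6.17, and its beta B partner Inhbb at 4.96 and 5.24. Dhh, the Hedgehog ligand that Sertoli cells send to the interstitium, stood at 5.64 and 5.61. Kitl, the ligand that germ cells read through Kit, was in the middle band and brighter in replicate 2 (0.33 and 1.11). The growth factor Fgf9, which antagonises the ovarian program, was the 1 dim signal (-0.42 and -1.17).

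The 15 receptors, enzymes and structural genes of Sertoli cells held 10 bright and 5 middle members. Clu, the secreted chaperone clusterin, was the brightest Sertoli cell gene of all at 7.87 and 7.79 (rank 71). Cst9, a cystatin, stood at 6.32 and 6.34, the defensin gene Defb19 at 6.22 and 6.09 and the calcium-binding protein gene Tesc at 5.40 and 5.59. The FSH receptor Fshr was in the middle band (1.49 and 1.75). So was the tight junction gene Cldn11 (0.87 and 1.20), the dimmest of this list.

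Steroid synthesis genes of Leydig cells were bright, while the LH receptor was dim. All 12 genes of the steroid list were detected, against 74.2% of all genes, and 8 were bright, against 10%. The other 4 were in the middle band, and the median rank of the list was 1002. The electron carriers and enzymes led. Fdx1, the ferredoxin of mitochondrial P450 enzymes, stood at 5.56 and 5.95 (rank 433). Hsd3b1, the 3-beta-hydroxysteroid dehydrogenase of fetal Leydig cells, stood at 5.52 and 5.62. Cyp17a1 came next, and Cyb5a, the cytochrome b5 that aids its lyase step, stood at 5.37 and 5.39. The mitochondrial membrane protein gene Tspo was the dimmest, at 1.51 and 1.78.

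Star, which carries cholesterol into mitochondria and was singled out after its values were seen, differed most between the animals in that list. It stood at 2.70 and 3.79, and its second probe at 0.85 and 1.88, so both of its probes were more than 2-fold brighter in replicate 2. In all, 11 of the 12 steroid genes were brighter in replicate 2, with a median difference of -0.16 (replicate 1 minus replicate 2). Over all detected genes 55.7% were brighter in replicate 2, and over bright genes 67.2%.

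Of 9 Leydig cell hormone and receptor genes with a probe, 8 were detected and 2 were bright, against 74.2% and 10% of all genes. The bright pair was Nr5a1 and the orphan nuclear receptor Nr4a1, an early response gene of LH signalling, at 4.96 and 6.54 (rank 435), a gap of -1.58. The prolactin receptor Prlr (2.34 and 2.57) and the matrix protein gene Thbs2 (0.86 and 1.04) were in the middle band. The other Prlr probe stood at a mean of -0.43, in the dim range. Lhcgr, the LH receptor, was dim (-2.62 and -2.43, rank 13208), as was the ACTH receptor Mc2r (-2.15 and -1.57). Gnrhr, the GnRH receptor, was not well above background on either array with either of its probes. All 9 were brighter in replicate 2, though for Gnrhr that order lies within background. Insl3 was not analysed here, as no probe carries that name.

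Of 7 genes known for adult Leydig cells, 7 were detected, against 74.2% of all genes. Of these 3 were in the middle band and 4 dim, with a median rank of 10222. The brightest was Hsd17b3, which makes testosterone and at this age belongs to Sertoli cells, at 2.87 and 2.86. For that reason it was also counted among the Sertoli cell enzymes.

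Interstitial and matrix genes held the brightest gene of the cell type lists. Of 63 stromal genes 62 were detected and 29 were bright (46.0%), against 74.2% and 10% of all genes. Their median rank was 3169. Sparc, a collagen-binding glycoprotein, stood at 8.69 and 8.65 and took rank 4 of all genes. Its second probe stood at 4.96, still in the bright range. The other leading members of the 16 fibrillar matrix genes were the collagen gene Col1a2 (7.33 and 7.46), the proteoglycan decorin, Dcn (6.96 and 7.11), and Mfap4 of elastic fibres (6.30 and 6.18). In that list 11 genes were bright and 5 middle, and the dimmest were Postn (1.45 and 1.49) and the elastin gene Eln (0.70 and 0.68).

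Basement membrane genes, which both Sertoli and myoid cells secrete, were all bright (7) or middle (5). Lamb1, the laminin beta 1 chain, stood at 5.94 and 6.10. The linker nidogen, Nid1, stood at 4.52 and 4.62, the collagen IV chain Col4a1 at 4.31 and 4.53 and the laminin chain Lama1 at 4.41 and 4.17. The dimmest of the 3 Nid1 probes stood at a mean of -1.96. The laminin chains Lama4 (1.66 and 1.93) and Lama5 (1.63 and 1.81) were the dimmest.

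The 22 genes of interstitial progenitors and of the Hedgehog response were all detected, 8 bright, 10 middle and 4 dim. Dlk1, a Delta-like protein of fetal progenitors and Leydig cells, stood at 7.42 and 7.56 (rank 106). Smo, the transducer of the Hedgehog signal, was bright as well, at 5.02 and 5.11. Its other probe stood at a mean of 0.93, in the middle range. The ligand Dhh itself was bright, as given above. The homeobox genes of the early gonad, Lhx2 (-1.19 and -1.36) and Emx2 (-3.08 and -3.09), were the dimmest.

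Contractile genes of peritubular and vascular smooth muscle ranged from bright to background. Of 13 genes 12 were detected, 3 of them bright. Myl9, a myosin light chain, stood at 6.28 and 6.44, Acta2 came next, and Tagln, the actin-binding transgelin, stood at 5.03 and 5.61. The tropomyosin gene Tpm2 was in the middle band (2.68 and 2.79). Desmin, Des, was dim (-0.56 and -0.83), as was Synpo2 (-3.37 and -2.98). Lmod1, the leiomodin of smooth muscle, passed on 1 array only. Of the 13 genes 11 were brighter in replicate 2, with a median difference of -0.29 (-0.47 over genes with 1 probe). Over all detected genes 55.7% were brighter in replicate 2, over bright genes 67.2% and over middle genes 61.5%.

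Vascular genes were mostly detected, and the share that was bright lay near the background of 10%. Of 34 genes 32 passed, against 74.2% of all genes, with 4 bright (11.8%), 14 middle and 14 dim, and the median rank was 7679.5. With the median of a gene's probes 2 vascular genes were bright, and 2 over genes with 1 probe only. All 22 endothelial genes were detected. Egfl7, a secreted protein of endothelium, stood at 4.10 and 4.20 (rank 1353), the adrenomedullin co-receptor gene Ramp2 at 3.89 and 3.93 and the VEGF receptor Kdr at 3.69 and 3.47. The other Kdr probe stood at a mean of 1.83, in the middle range. VE-cadherin, Cdh5, was in the middle band (2.53 and 2.70). The angiopoietin receptor Tek (-2.07 and -1.82) and the ETS factor Erg (-3.63 and -3.65) were dim.

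Among 7 pericyte genes, the adhesion molecule Mcam was bright (4.60 and 4.74). Its other probe stood at a mean of 0.17, in the dim range. The receptor Notch3 (1.64 and 1.81), Pdgfrb (1.48 and 1.60) and the proteoglycan NG2, Cspg4 (1.33 and 1.18), were in the middle band. The potassium channel genes Abcc9 (-0.69 and -0.61) and Kcnj8 (-2.54 and -2.41) were dim. Lymphatic genes were the least detected vascular list, with 3 of 5. Pdpn, a podoplanin also made outside lymphatics, was in the middle band (3.03 and 3.43), and Lyve1 (-1.41 and -1.31) and Reln (-4.60 and -3.99) were dim. The other Pdpn probe stood at a mean of -0.33, in the dim range. The lymphatic master regulator Prox1 and the VEGF-C receptor Flt4 were not well above background on either array.

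Markers of cells outside those compartments show what detection does and does not separate. Of 16 genes of other organs 10 were detected (62.5%), against 74.2% of all genes, with alpha-fetoprotein, Afp, the brightest at 2.49 and 2.84. Myh6 of that list was also in the middle band, at 2.22 and 1.97 (rank 4436), beside rank 4334 for Ddx4. The other probe of Myh6 was not detected. Albumin, Alb, was not well above background. Of 1070 odorant receptor genes 87 were detected (8.13%) and 0 were bright. A detected call in the dim or middle band is therefore by itself no sign of the cell type. Of 12 housekeeping genes 12 were detected and 9 bright, among them Tuba1b, Actb, Ppia, Gapdh, Eef1a1, Sdha, B2m and Hprt, at mean levels from 3.64 to 8.52.

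For the counts of this paragraph, 74.2% of all genes were detected and 10% were bright. All 13 macrophage genes were detected, 4 middle and 9 dim. The CSF1 receptor Csf1r led them (2.62 and 2.35), though the dimmest of its 3 probes stood at a mean of -1.71. The adult globin genes Hba-a1 (6.79 and 6.81) and Hbb-bt (6.16 and 6.18) were bright in both animals. Of 11 genes of the mesonephric duct and rete 9 were detected, and Krt18, a keratin that immature Sertoli cells also make, was bright (3.87 and 4.10). Of 10 nerve and glia genes 9 were detected and 0 were bright. Of 7 adipocyte genes 5 were detected, 1 middle and 4 dim, with the fatty acid carrier Fabp4 the brightest (0.48 and 0.29). Of 5 adrenal cortex genes 4 were detected, 2 middle and 2 dim, with the steroid 21-hydroxylase Cyp21a1 the brightest (2.32 and 3.24). The other probe of Cyp21a1 was not detected.

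Ovary pathway genes were all detected, 9 of 9 against 74.2% of all genes, and only Foxl2 was bright. By the bright probe shown above it stood at 4.71 and 4.16 (rank 1098). By its other probe, which shares 12 bases with the first, it stood at -3.37 and -3.75, so the 2 probes differed by 7.99 on the log2 scale in the same animals. The other 8 ovary genes were 2 middle and 6 dim. Of 25 probes with over 80% G and C, 10 (40%) lay in the brightest 10% of probes, and of 167 probes at 70 to 80%, 26 did (15.6%). Whether base composition set the Foxl2 level was not tested.

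**Figure D2:**
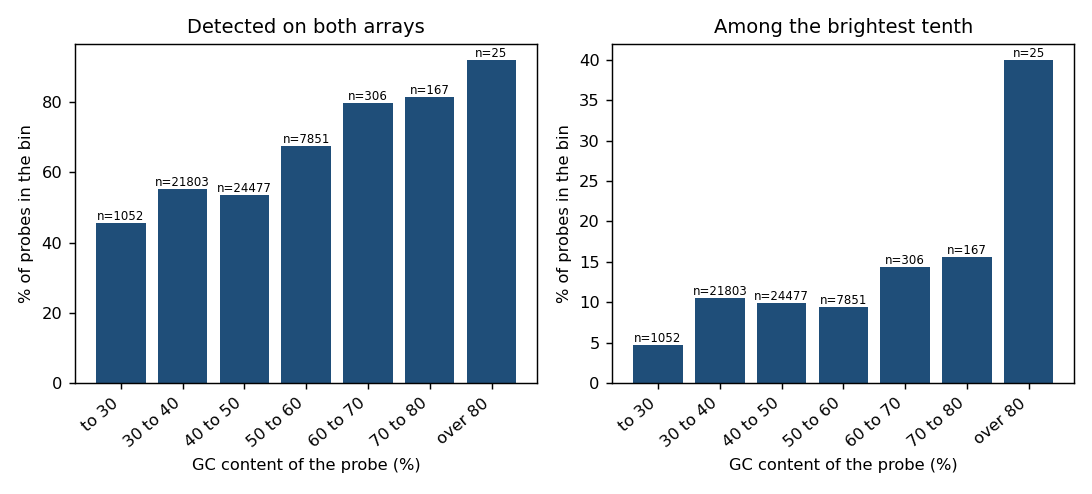
Share of 55681 probes detected on both wild-type arrays (left) and share in the brightest 10% (right), by G and C content of the probe, with the number of probes above each bar. The bright share lies between 4.66% and 15.6% up to a content of 80%, and is 40% in the 25 probes above it.

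Ribosomal protein genes made up most of the brightest genes. Of the 20 brightest, 13 encode ribosomal proteins, at mean levels of 8.39 to 8.78. Among them are Rps14, Rpl37a, Rpl35, Rps10, Rpl9, Rps20, Rps24, Rplp0, Rpl37, Rplp2 and Rpl41. Tpt1, a translation-associated protein of growing cells, took rank 1 at 8.92 and 8.78. Tuba1b, an alpha tubulin (8.49 and 8.54), and the beta actin gene Actb (8.31 and 8.45) joined them, as did Sparc.

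The remaining 3 of the 20 were Glrx2, Zfp628 and Exosc2. With the median of a gene's probes in place of the brightest probe, 12 of the 20 stayed among the brightest 20. Glrx2, a mitochondrial glutaredoxin, stood at 8.64 and 8.51, but its other probes stood at 2.22 and -4.23. Zfp628 stood at 8.62 and 8.5 by the probe shown above and at 0.27 by its other probe. Exosc2, a subunit of the RNA exosome, stood at 8.47 and 8.34 with its only probe. Over 5941 detected genes with several probes, the median range between probes of a gene was 2.96, and in 24.7% of them it was over 5.

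**Figure D3:**
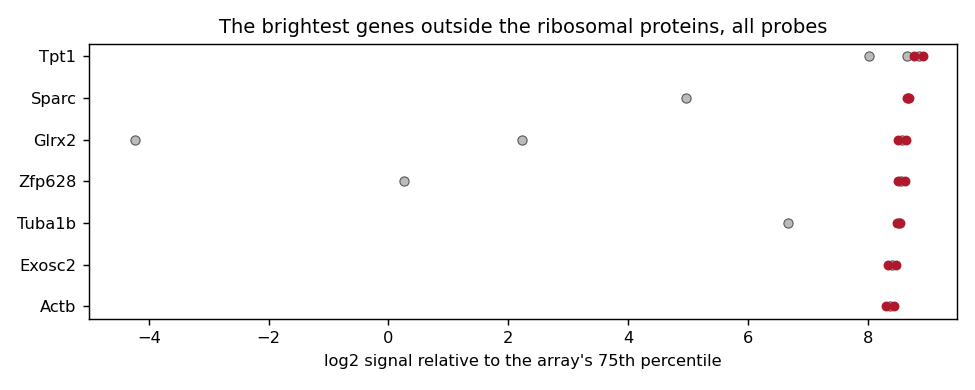
Log2 signal, relative to each array's 75th percentile, of the 7 genes among the 20 brightest that encode no ribosomal protein, in order of rank from the top. Red points are the 2 animals at the probe used, and grey points are the means of every probe of that gene; Glrx2 has other probes at 2.22 and -4.23 and Zfp628 one at 0.27.

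The animals were alike over most genes. Pearson's r across the 16302 detected genes, which are not independent replicates, was 0.993, and the median absolute difference was 0.146. Of the detected genes 234 (1.44%) were more than 2-fold apart, 117 in each direction. That count was 103 with normexp background and 662 with detection on 1 array. Of 13 skeletal muscle genes, 12 were brighter in replicate 1, and 9 of the 12 detected were more than 2-fold brighter there, against that 1.44%. Their median level was 1.48 in replicate 1 and -0.55 in replicate 2. Mylpf, counted among the 12 brighter in replicate 1, was not detected on either array, so its order lies within background.

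Of the 10 largest differences towards replicate 1, 4 were members of the muscle list, and the others are known from muscle as well. Sln, the sarcolipin of the muscle calcium pump, stood at 1.43 and -3.33, a gap of 4.76. The carbonic anhydrase Car3 stood at 0.85 and -3.71, the troponin Tnnt3 at 1.48 and -2.38 and the muscle creatine kinase Ckm at 0.07 and -3.78. The troponin Tnnc2 stood at 3.99 and 0.38 and the myosin light chain Myl1 at 3.30 and -0.27. Of the 2 Myl1 probes 1 was detected on both arrays. Dhrs7c, Myot, Myl3 and Cox8b made up the 10, with gaps of 2.83 to 3.23, and Acta1, the brightest muscle gene, stood at 3.52 and 1.96. The myoblast factor Myog went the other way (-3.29 and -2.31). Where the muscle signal came from was not tested.

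**Figure D4:**
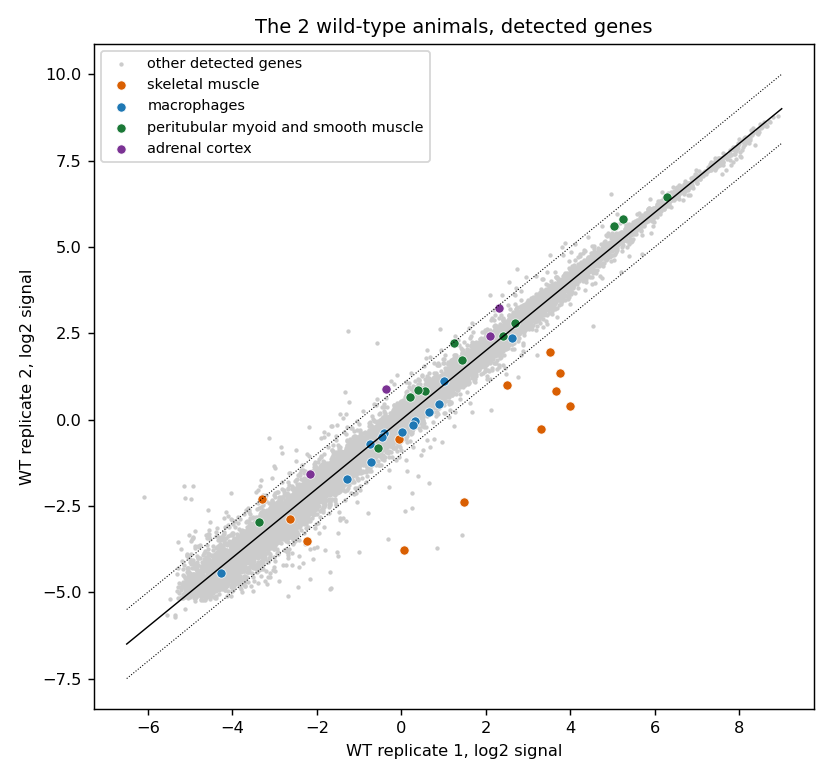
Log2 signal of 16302 detected genes in WT replicate 1 (x) and replicate 2 (y), with the line of equality and dotted lines at a 2-fold difference. Skeletal muscle genes (orange) lie to the right of the dotted line in 9 of 12 cases, while the macrophage, smooth muscle and adrenal genes lie within the dotted lines, with 1 adrenal gene outside.

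The largest differences towards replicate 2 were of another kind. Nr4a2, an early response nuclear receptor and relative of Nr4a1, stood at -1.27 and 2.57, a gap of -3.84. Erfe, the erythroid hormone erythroferrone, stood at -6.09 and -2.25. Of its 2 probes 1 was detected on both arrays. Its level of -6.09 lies close to the lowest level well above background in replicate 1 (-6.21). Olfr1123, Klrg1, Pck1, Camk2n2, C2cd4b, Rln1, Diras2 and Nap1l5 followed, with gaps of -3.21 to -2.03. Of 5 adrenal cortex genes 4 were brighter in replicate 2, against 55.7% of all detected genes, and the list median difference was -0.58. That median is the difference of Mc2r, a dim gene, and the remaining gene, Cyp11b2, was not detected on either array. Macrophage genes differed the other way, with a median of 0.38 and 10 of 13 brighter in replicate 1. Over all detected genes the median difference was -0.03. The germ, Sertoli and vascular lists had medians between -0.17 and 0.01. Whether these differences share a source with the muscle genes was not tested.

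**Figure D5:**
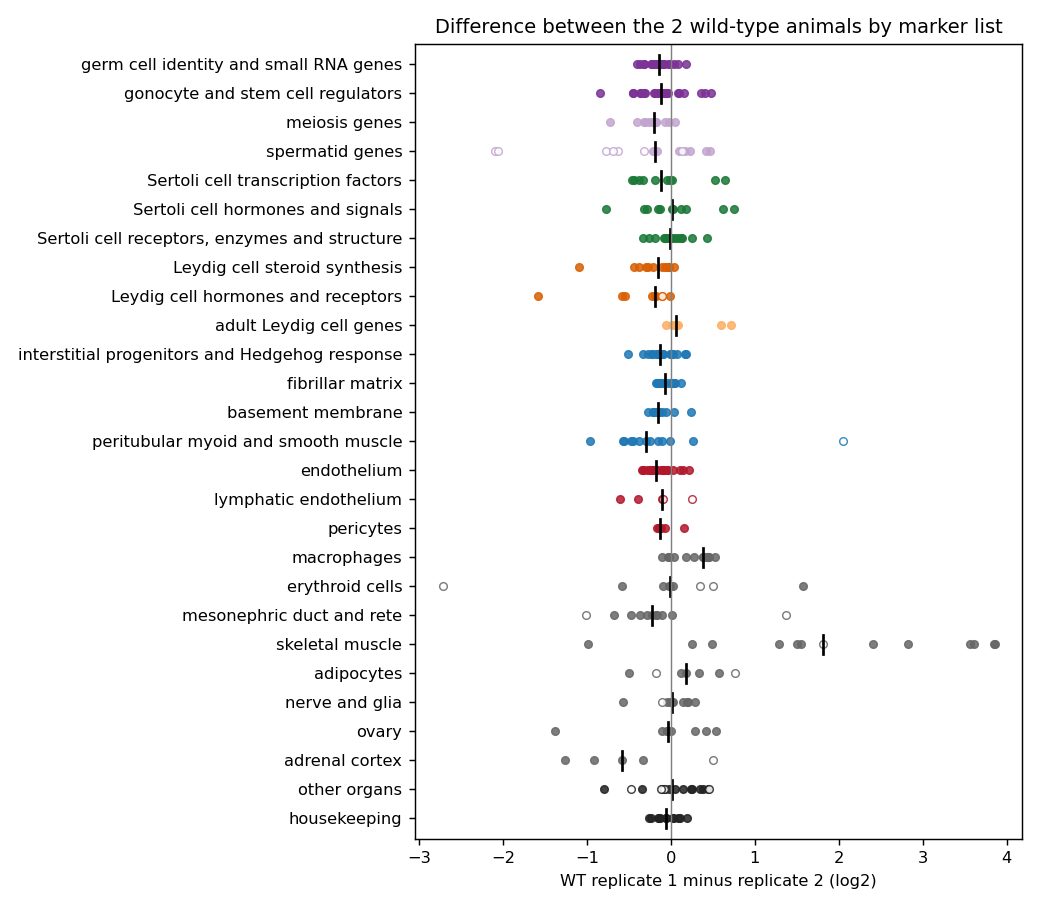
Log2 signal in WT replicate 1 minus replicate 2 for each gene of 27 marker lists (rows). Filled points were detected on both arrays, open points were not, and black bars are medians over all members. Skeletal muscle has a median of 1.81, the difference of Mylpf, which was not detected on either array. Adrenal cortex has a median of -0.58, the difference of Mc2r.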

How the data were processed

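The members, the gene lists and the bands were chosen with earlier results of these data known, so no list is independent evidence. Per the labels' protocols, 100 ng of total RNA per animal was amplified and labelled with Cy3 for 1-colour Agilent arrays. Per the file headers, the authors' deposited files give each spot a processed signal, which is a linear intensity after background subtraction, beside its mean and local background intensities and quality flags coded 0 or 1. The headers name Feature Extraction 10.7.3.1 and the submitters' processing notes name Agilent Feature Extraction 8.5.1.1. The authors' series table holds an intensity that equals the processed signal divided by the array's median in all 59305 non-control spots, within 0.01%.

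Outlier spots (99 and 116) were left out, and the spots of a probe were averaged after log2 and the shift by the 75th percentile (652 and 748). No spot was saturated, and 61.6% and 59.2% of spots were well above background. Of 308 negative control spots 2 and 3 carried that flag. Probes repeated over 10 spots had a median SD of 0.061 and 0.058. Only 2 arrays limit the precision. Of 55681 probes, 26756 were named through their own accession, 93 through another and 3762 by a symbol of the RefSeq table of GRCm38.p6, used for names only. The other 25070 stayed unnamed and were not ranked as genes. Positions are those of the array design (mm9). Python 3.11.15, pandas 2.3.3, R 4.3.3 and limma 3.58.1 (normexp with an offset of 50, quantile scaling) were used.

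The genes named are the 5 markers, the 20 brightest, the 4 brightest, 2 dimmest detected and all undetected members of each gonadal list, the brightest and all bright members of other lists, and the 10 largest differences in each direction. Some genes that this rule names are not reported here. Star, the spermatid genes, Prm2, Sox8, Myog, Alb, Myh6, Mylpf and Cyp11b2 were named after their values were seen. Dmrt1, Nr5a1, Pdgfrb, Emx2, Mc2r and Hsd17b3 stand in 2 lists each. RefSeq promoters were matched for 17223 of the 21984 genes (78.3%), fewer than 80%, so a planned check of promoter composition by band is void and is not reported. Alternatives tried were normexp background, median and quantile scaling, the series table, the median of a gene's probes, outlier spots kept, detection on 1 array, each array alone and, added after seeing the data, only genes with 1 probe.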

Additional observations from a re-analysis of the deposited data

How the results depend on the processing

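Median scaling and the series table shift each array by a constant, so they cannot change a rank, and all 21984 genes kept their band under both. The band was kept by 98.5% of genes with normexp background, 86.7% with the median of a gene's probes, and 94.7% and 94.2% with replicate 2 and replicate 1 alone. The share of genes detected, 74.2%, was 78% with detection on 1 array, 75.3% to 76.9% with 1 animal left out, and 68.0% over genes with 1 probe (10361 genes, 9 of the brightest 20). With the median of probes, bright germ cell genes rose from 3 to 5, bright vascular genes fell from 4 to 2, and 12 of the brightest 20 stayed. Over genes with 1 probe, 21 vascular genes were detected and 2 bright, and the smooth muscle difference was -0.47. The 234 genes over 2-fold apart were 103 with normexp background and 662 with detection on 1 array. Foxl2 moved from the top 4.99% to 29.8% with the median of probes, and Glrx2 to 14.6%. A difference between the animals was taken as kept where it stayed within 1.5 times. The skeletal muscle median stayed between 1.54 and 1.81. No paired analysis was possible because no groups were compared.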

Other observations

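All 76 ribosomal protein genes ranked were detected and bright, with a median rank of 84.5, and 41 of them were among the 100 brightest genes. Vomeronasal receptor genes, like odorant receptors, were seldom detected (23 of 256, 8.98%). Coding genes were detected in 77.3% of cases, long non-coding RNA genes in 35.5% (528 of 1487) and pseudogenes in 64.9% (262 of 404). Of those pseudogenes 101 (25%) were bright. Of 2188 bright genes with both positions known, 62 (2.83%) were read by a probe that the array places on another chromosome than the gene, against 0.385% of the other genes. A probe that matches several copies would read them together, and the share that this adds was not tested.

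By chromosome, 77.3% of autosomal and 78% of X-linked genes were detected, and 7 of 20 Y-linked genes. The brightest Y-linked gene was Rbmy, an RNA-binding protein gene of germ cells, at 3.45 and 3.40, at the upper edge of the middle band. The widely expressed genes Eif2s3y (2.19 and 2.25) and Ddx3y (1.14 and 1.33) followed. Sry, the testis-determining gene, was not well above background on either array. Of 16194 probes for genomic regions without a gene symbol, 5248 were detected (32.4%).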
